A study of Mus musculus with 24 samples.

Results

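The triad of skeletal muscle is the junction of a T-tubule with the sarcoplasmic reticulum, and 10 of its genes are described here: the ryanodine receptors Ryr1 and Ryr3, the dihydropyridine receptor subunits Cacna1s, Cacnb1, Cacng1 and Cacna2d1, the adaptor Stac3, the junctophilins Jph1 and Jph2, and triadin (Trdn). They were taken by gene name from the deposited tables, which list 56941 genes. All 10 were among the 13318 genes that passed the filter on low counts. RNA was sequenced from cultured muscle tissue of C2C12, a mouse myoblast line, of genotype ChR2::tdTomato, in which a light-gated cation channel (ChR2) and a red fluorescent protein are expressed. The myoblasts were fused into fibers on grooved fibrin hydrogels in medium with horse serum and IGF-1. The tissues were either left without light (Control) or paced with blue light at 1, 4 or 10 Hz for 30 min per day, and each of the 4 conditions had 6 libraries.

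Control tissues carried the same channel and twitched on their own, so they were unstimulated and not at rest. The material was 1 engineered cell line without nerve or vessels, and the labels do not say how far the 6 libraries of a condition were cultured apart, so p-values measure the spread between libraries. In bulk RNA, fewer fibers and less RNA per fiber cannot be told apart.

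In skeletal muscle, depolarization of the T-tubule moves the voltage sensor Cacna1s, which opens Ryr1 in the facing membrane by direct contact and releases stored calcium onto the myofilaments. Stac3 and the beta subunit Cacnb1 are needed for the voltage sensor to reach the junction and to work there, and the junctophilins hold both membranes a short distance apart. Triadin ties the release channel to calsequestrin, the calcium buffer inside the store.

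Library totals ran from 4.09 to 15.2 M estimated counts, of which 3507 to 20289 per library fell on the 10 triad genes. By condition the totals were 4.2 to 7.65 M in control, 4.09 to 15.2 M at 1 Hz, 7.55 to 11.5 M at 4 Hz and 5.41 to 12.1 M at 10 Hz. The tissue had the markers of its label: the summed level of 21 fiber genes was 17130 to 20100 TPM (transcripts-per-million, a level per transcript length) in control and 16160 to 35270 TPM over the stimulated libraries, with alpha-actin Acta1 at 3292 ± 348 TPM in control (SD, n = 6). The 4 adipocyte genes summed to at most 1.2 TPM, the 8 myoblast genes to 62.1 to 145 TPM and the 8 fibroblast genes to 124 to 354 TPM, and the 6 genes of the cardiac list to 925 to 1922 TPM. Most of the cardiac sum was Myl4, a myosin light chain also known from immature skeletal muscle, at 1090 ± 136 TPM in control, with Myh6 at 32.4 ± 4.99 TPM, while Nppa and Myl7 were listed at 0 in all libraries. The libraries also differed in the share of 21 small RNAs without a poly(A) tail. It was 98.8 to 169 CPM (counts-per-million) in control, 15.03 to 70.2 at 1 Hz, 18.3 to 51.1 at 4 Hz and 38.4 to 272 at 10 Hz. Per the labels, low-input samples were made by ribodepletion in place of poly(A) selection; the sources used here do not name them.

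The start of a gene is where muscle regulators are read, and 5 of the 10 genes had an entry in the RefSeq promoter table of build GRCm38.p6. The 250 bases before the start are shown for the voltage sensor and for Jph2, whose patterns over the 24 libraries were the closest of all pairs of triad genes, and for Ryr1, the release channel. Capitals mark CAGCTG, the E-box form known for MyoD binding, searched on both strands (it reads the same on each). The Cacna1s stretch is at chr1:136052561-136052810 on the plus strand, that of Jph2 at chr2:163397994-163398243 and that of Ryr1 at chr7:29125152-29125401, both on the minus strand.
Cacna1s: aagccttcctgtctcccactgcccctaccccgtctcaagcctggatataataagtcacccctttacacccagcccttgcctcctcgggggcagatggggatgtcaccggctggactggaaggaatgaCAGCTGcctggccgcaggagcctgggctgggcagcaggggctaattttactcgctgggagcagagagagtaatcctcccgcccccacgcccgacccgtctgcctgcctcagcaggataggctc
Jph2: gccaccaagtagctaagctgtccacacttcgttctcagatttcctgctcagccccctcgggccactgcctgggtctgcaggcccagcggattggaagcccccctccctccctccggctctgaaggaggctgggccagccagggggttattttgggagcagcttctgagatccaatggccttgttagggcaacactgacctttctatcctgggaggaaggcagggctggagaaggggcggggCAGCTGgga
Ryr1: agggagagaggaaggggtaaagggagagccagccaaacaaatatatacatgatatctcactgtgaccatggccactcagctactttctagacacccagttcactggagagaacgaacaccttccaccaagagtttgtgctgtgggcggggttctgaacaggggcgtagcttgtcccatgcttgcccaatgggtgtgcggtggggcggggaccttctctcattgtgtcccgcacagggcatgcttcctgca
One CAGCTG began 123 bases before the Cacna1s start, and 1 began 9 bases before the first Jph2 start. The Ryr1, Cacnb1 and Cacna2d1 stretches held none, and 13.1% of 32536 RefSeq promoters of that length held it. The Cacna1s stretch also held GGAATG, an MCAT element, which stood 130 bases before the start (CATTCC or GGAATG occurred in 12.6% of the promoters). None of the motifs searched was found in the Ryr1 stretch, which says only that those letters were not in this window.

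Levels per length in unstimulated tissue spanned a wide range. Cacng1, the gamma subunit of the voltage sensor, was highest at 224 ± 57.1 TPM (SD, n = 6), followed by Jph2 at 78.5 ± 16.5 TPM. Cacnb1 stood at 42.7 ± 5.35 TPM, Trdn at 37.8 ± 6.41 TPM, Cacna2d1 at 31.8 ± 6.70 TPM and Cacna1s at 26.9 ± 5.32 TPM, and these neighbours overlapped within their spread. Stac3 at 17.9 ± 3.47 TPM, Jph1 at 17.5 ± 1.32 TPM and Ryr1 at 14.8 ± 1.60 TPM also overlapped. Ryr3 was lowest at 4.16 ± 2.13 TPM. These levels rest on the transcripts that the counting software assigned. Setting Ryr1 at its annotated 15358 bases, the length implied by count over TPM was 1816 to 8718 bases for Ryr3, whose main transcript has 15458, and 1289 to 1818 bases for Trdn, whose main transcript has 11114. It was 820 to 1403 bases for Stac3 against 1846, 4382 to 5716 for Cacna2d1 against 7732 and 2067 to 2555 for Cacnb1 against 3424. At the main transcripts all these genes would be lower, Ryr3 included. For Cacna1s the implied length was 3410 to 6523 bases (median 4892) against 6345. The places of Trdn, Cacna2d1, Cacna1s, Cacnb1 and Stac3 among their neighbours are therefore not settled.

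**Figure D1:**
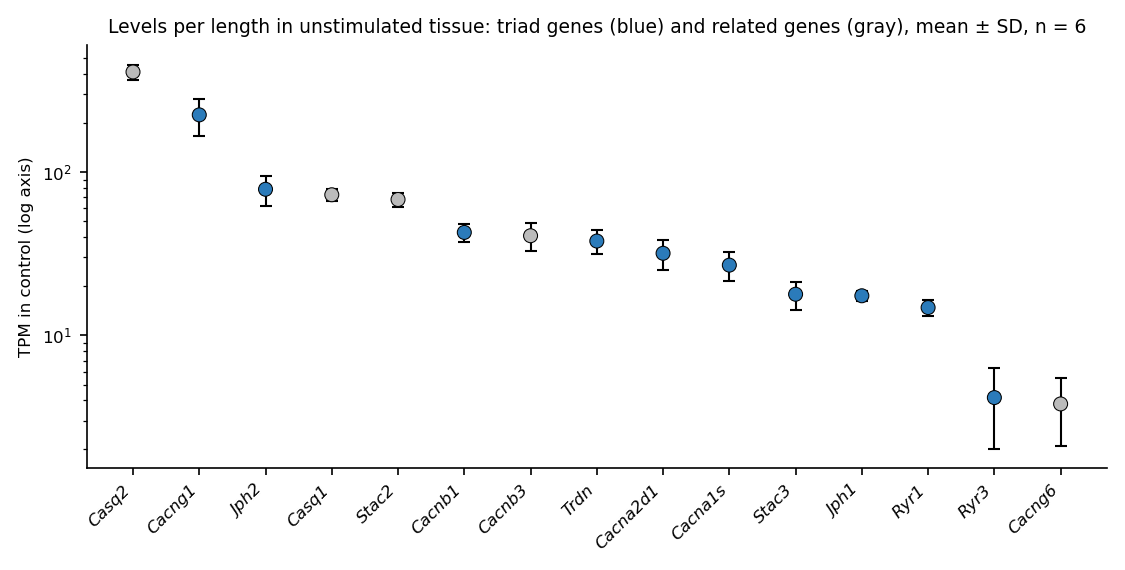
Mean TPM (log axis, bars ± SD) in the 6 control libraries for the 10 triad genes in blue and 5 related genes in gray. Cacng1 at 224 TPM led the triad genes and Ryr3 at 4.16 TPM was last; calsequestrin Casq2 was higher than any of them.

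The question of the design was how the tissue responds to daily pacing at different frequencies. The triad genes were higher after pacing at 1 and 4 Hz and mostly not after 10 Hz. At 1 Hz, 9 of 10 rose against control (adjusted p below 0.05 and log2 fold change above 0.5), where 9.34% of all genes tested did. Jph1 was the exception, and the same 9 genes make up the count by adjusted p alone, against 18.1% of all genes. At 4 Hz 9 of 10 rose by the same rule, against 10.5% of all genes, and Jph1 passed the adjusted p with a smaller fold, making 10 of 10 against 19.2%. At 10 Hz only Stac3 rose, 1 of 10 against 1.24% of all genes. The median log2 fold change of the 10 genes was 0.65 at 1 Hz, 0.70 at 4 Hz and 0.18 at 10 Hz, beside -0.01 over all genes in each comparison. The 3 comparisons share the control libraries. With the log2 share of small RNA as a covariate, no triad gene passed at 1 or 4 Hz (medians 0.29 and 0.30; 1 and 250 genes of the whole table were then counted), and since that share does not overlap between control and either condition, its part cannot be told apart from that of pacing.

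**Figure D2:**
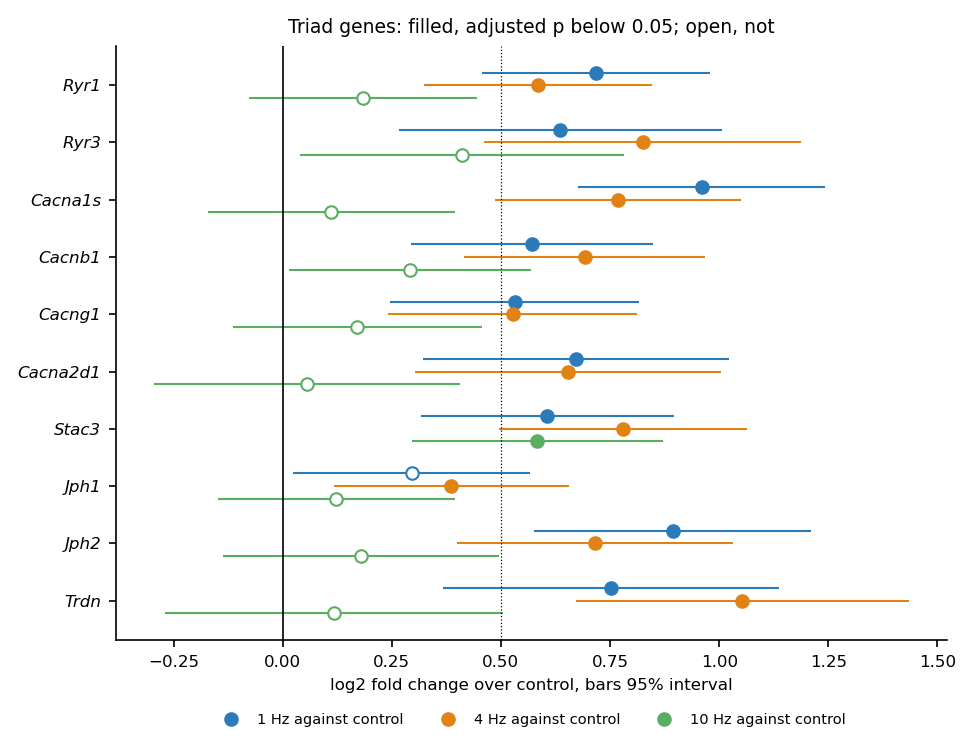
Log2 fold change against control (x axis, bars 95% interval) of each triad gene at 1, 4 and 10 Hz; filled points passed an adjusted p of 0.05 in edgeR, and the dotted line is at 0.5. Filled points stand for 9 genes at 1 Hz, 10 at 4 Hz and only Stac3 at 10 Hz.

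The release channels came first. Ryr1 (ENSMUSG00000030592, GRCm39 chr7:28702769-28824604, minus strand, 106 exons) is the main calcium release channel of skeletal muscle. Its level was 126 to 157 CPM (scaled between libraries, median 143) in control, 165 to 304 (median 229) at 1 Hz, 179 to 284 (median 204) at 4 Hz and 129 to 194 (median 162) at 10 Hz. Every library at 1 and 4 Hz stood above every control library, whereas 3 of the 6 at 10 Hz lay within the control range. Ryr1 rose by a log2 fold change of 0.72 ± 0.13 (SE) at 1 Hz (edgeR adjusted p = 0.000145) and 0.58 ± 0.13 at 4 Hz (edgeR adjusted p = 0.000744). At 10 Hz the log2 fold change was 0.18 ± 0.13 (edgeR adjusted p = 0.444).

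Ryr3 (ENSMUSG00000057378, GRCm39 chr2:112461699-113047441, minus strand) is the second release channel, known from developing muscle and from diaphragm. It was counted in few reads, 36 to 69 per control library. Its level was 7.99 to 11.5 CPM (median 8.50) in control, 12.7 to 16.2 (median 14.1) at 1 Hz, 13.3 to 19.4 (median 15.9) at 4 Hz and 7.93 to 19.0 (median 10.8) at 10 Hz. Control did not overlap with 1 or 4 Hz, and the 10 Hz libraries covered almost the whole span. The log2 fold change was 0.64 ± 0.18 at 1 Hz (edgeR adjusted p = 0.00756), 0.82 ± 0.18 at 4 Hz (edgeR adjusted p = 0.000658) and 0.41 ± 0.18 at 10 Hz (edgeR adjusted p = 0.189). As a share of the summed TPM of both channels, Ryr3 made up 21.2 ± 8.97% in control, 20.0 ± 6.03% at 1 Hz, 29.2 ± 9.78% at 4 Hz and 23.0 ± 6.66% at 10 Hz, with overlapping ranges. By CPM the shares were 5.99, 5.81, 7.23 and 6.85%; the main transcripts of both genes are nearly equal in length, so this is close to a share per annotated length, and the higher share by TPM rests on the shorter length assigned to Ryr3. The cardiac channel Ryr2 had 15 counts in all libraries together.

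Of the dihydropyridine receptor, Cacna1s (ENSMUSG00000026407, GRCm39 chr1:135980259-136047560, plus strand, 44 exons) encodes the pore and voltage sensor. Control libraries held 65.6 to 77.4 CPM (median 69.0), against 103 to 169 (median 132) at 1 Hz and 92.7 to 151 (median 118) at 4 Hz. The 10 Hz libraries held 49.4 to 104 CPM (median 75.0). In CPM, all 1 and 4 Hz libraries lay above the narrow control range, and those at 10 Hz lay on both sides of it. In TPM the ranges overlapped, with 17.5 to 32.1 in control, 30.7 to 50.6 at 1 Hz and 24.2 to 41.0 at 4 Hz. Cacna1s had the largest change of the 10 genes at 1 Hz, a log2 fold change of 0.96 ± 0.14 or 1.95-fold (edgeR adjusted p = 1.58e-05). It rose by 0.77 ± 0.14 at 4 Hz (edgeR adjusted p = 0.000105), and at 10 Hz the value was 0.11 ± 0.14 (edgeR adjusted p = 0.702). In the fit with the small RNA share the values were 0.56 at 1 Hz (edgeR adjusted p = 0.273) and 0.39 at 4 Hz (edgeR adjusted p = 0.303). With that fit included, Cacna1s lost the adjusted p in 4 of 11 alternative settings at 4 Hz and in 2 of 11 at 1 Hz. Its lowest values over these settings were 0.22 at 4 Hz and 0.47 at 1 Hz.

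Cacnb1 (ENSMUSG00000020882, GRCm39 chr11:97892204-97913860, minus strand) encodes the cytoplasmic beta subunit. It ranged from 57.3 to 80.1 CPM (median 60.8) in control, 72.5 to 109 (median 96.8) at 1 Hz, 86.6 to 124 (median 98.7) at 4 Hz and 56.3 to 101 (median 76.3) at 10 Hz. Only 4 Hz stood clear of control, whose top value, 80.1 CPM in replicate 4, was far from the other 5. The log2 fold change was 0.57 ± 0.14 at 1 Hz (edgeR adjusted p = 0.00194), 0.69 ± 0.13 at 4 Hz (edgeR adjusted p = 0.000248) and 0.29 ± 0.14 at 10 Hz (edgeR adjusted p = 0.214).

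Cacng1 (ENSMUSG00000020722, GRCm39 chr11:107591493-107607408, minus strand) encodes the gamma subunit, which dampens the channel current. Its level was 130 to 242 CPM (median 160) in control, 200 to 276 (median 245) at 1 Hz, 190 to 309 (median 230) at 4 Hz and 145 to 233 (median 189) at 10 Hz. The groups overlapped in every comparison with control. It rose by a log2 fold change of 0.53 ± 0.14 at 1 Hz (edgeR adjusted p = 0.00428) and of 0.53 ± 0.14 at 4 Hz (edgeR adjusted p = 0.00387), close to the 0.5 of the rule, with 0.17 ± 0.14 at 10 Hz (edgeR adjusted p = 0.522).

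Cacna2d1 (ENSMUSG00000040118, GRCm39 chr5:16139372-16579509, plus strand) encodes the alpha2delta subunit, which aids trafficking of calcium channels. It ran from 73.0 to 128 CPM (median 93.7) in control, 121 to 194 (median 146) at 1 Hz, 115 to 197 (median 141) at 4 Hz and 68.3 to 135 (median 98.5) at 10 Hz. At 1 and 4 Hz 4 of 6 libraries each lay above all control libraries. It rose by a log2 fold change of 0.67 ± 0.17 at 1 Hz (edgeR adjusted p = 0.00347) and 0.65 ± 0.17 at 4 Hz (edgeR adjusted p = 0.00353), and the value at 10 Hz was 0.06 ± 0.17 (edgeR adjusted p = 0.902).

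Stac3 (ENSMUSG00000040287, GRCm39 chr10:127337542-127344696, plus strand) encodes the adaptor of the voltage sensor. The level was 8.86 to 16.0 CPM (median 12.2) in control, 16.7 to 20.7 (median 17.8) at 1 Hz, 18.2 to 24.4 (median 20.6) at 4 Hz and 12.9 to 24.3 (median 18.2) at 10 Hz. Libraries at 1 and 4 Hz lay above all controls, as did 4 of 6 at 10 Hz. The log2 fold change was 0.61 ± 0.14 at 1 Hz (edgeR adjusted p = 0.00167), 0.78 ± 0.14 at 4 Hz (edgeR adjusted p = 0.000101) and 0.58 ± 0.14 at 10 Hz (edgeR adjusted p = 0.0153). Stac3 was the gene that differed least between 10 and 1 Hz, with -0.02 ± 0.13 (95% interval -0.30 to 0.25). The call at 10 Hz was lost without 10 Hz replicate 6 (0.48, edgeR adjusted p = 0.0504), with only the 12 libraries compared (0.59, edgeR adjusted p = 0.0703) and on log2(TPM + 1) (0.36, limma adjusted p = 0.203), and it held with the small RNA share as a covariate (0.52, edgeR adjusted p = 0.0255).

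The junctophilins are the membrane tethers, and no test compared one with the other. Jph2 (ENSMUSG00000017817, GRCm39 chr2:163178162-163239920, minus strand), the junctophilin shared by heart and skeletal muscle, had 185 to 291 CPM (median 200.03) in control, 329 to 498 (median 391) at 1 Hz, 315 to 477 (median 341) at 4 Hz and 163 to 328 (median 245) at 10 Hz. Neither 1 nor 4 Hz overlapped with control. It rose by a log2 fold change of 0.89 ± 0.15 at 1 Hz (edgeR adjusted p = 0.000109) and 0.72 ± 0.15 at 4 Hz (edgeR adjusted p = 0.000669), with 0.18 ± 0.15 at 10 Hz (edgeR adjusted p = 0.551).

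Jph1 (ENSMUSG00000042686, GRCm39 chr1:17012318-17168113, minus strand), the junctophilin particular to skeletal muscle, had 52.0 to 62.6 CPM (median 55.6) in control, 64.0 to 73.9 (median 69.4) at 1 Hz, 60.5 to 85.3 (median 71.2) at 4 Hz and 39.2 to 83.0 (median 58.6) at 10 Hz. The 1 Hz libraries lay above all controls, yet the log2 fold change of 0.30 ± 0.13 missed the threshold (edgeR adjusted p = 0.0826). At 4 Hz it rose by 0.39 ± 0.13 (edgeR adjusted p = 0.0212), less than the 0.5 of the rule, and at 10 Hz the value was 0.12 ± 0.13 (edgeR adjusted p = 0.646). Jph2 made up 81.4 ± 2.66% of the summed junctophilin TPM in control, 87.0 ± 1.71% at 1 Hz, 84.7 ± 2.89% at 4 Hz and 82.3 ± 2.04% at 10 Hz (SD, n = 6 each). The control and 1 Hz shares met only at their ends, 85.3% and 85.2%.

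Trdn (ENSMUSG00000019787, GRCm39 chr10:32956550-33356376, plus strand, 52 annotated transcripts) had 25.9 to 47.9 CPM (median 34.5) in control, 42.1 to 81.9 (median 54.9) at 1 Hz, 50.8 to 94.1 (median 71.9) at 4 Hz and 29.9 to 54.3 (median 34.2) at 10 Hz. The 4 Hz libraries lay above all controls, 4 of 6 did at 1 Hz and 2 of 6 at 10 Hz. Its rise at 4 Hz was the largest of the 10 genes, a log2 fold change of 1.05 ± 0.19 or 2.08-fold (edgeR adjusted p = 9.15e-05). It rose by 0.75 ± 0.19 at 1 Hz (edgeR adjusted p = 0.00295), and the value at 10 Hz was 0.12 ± 0.19 (edgeR adjusted p = 0.783).

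**Figure D3:**
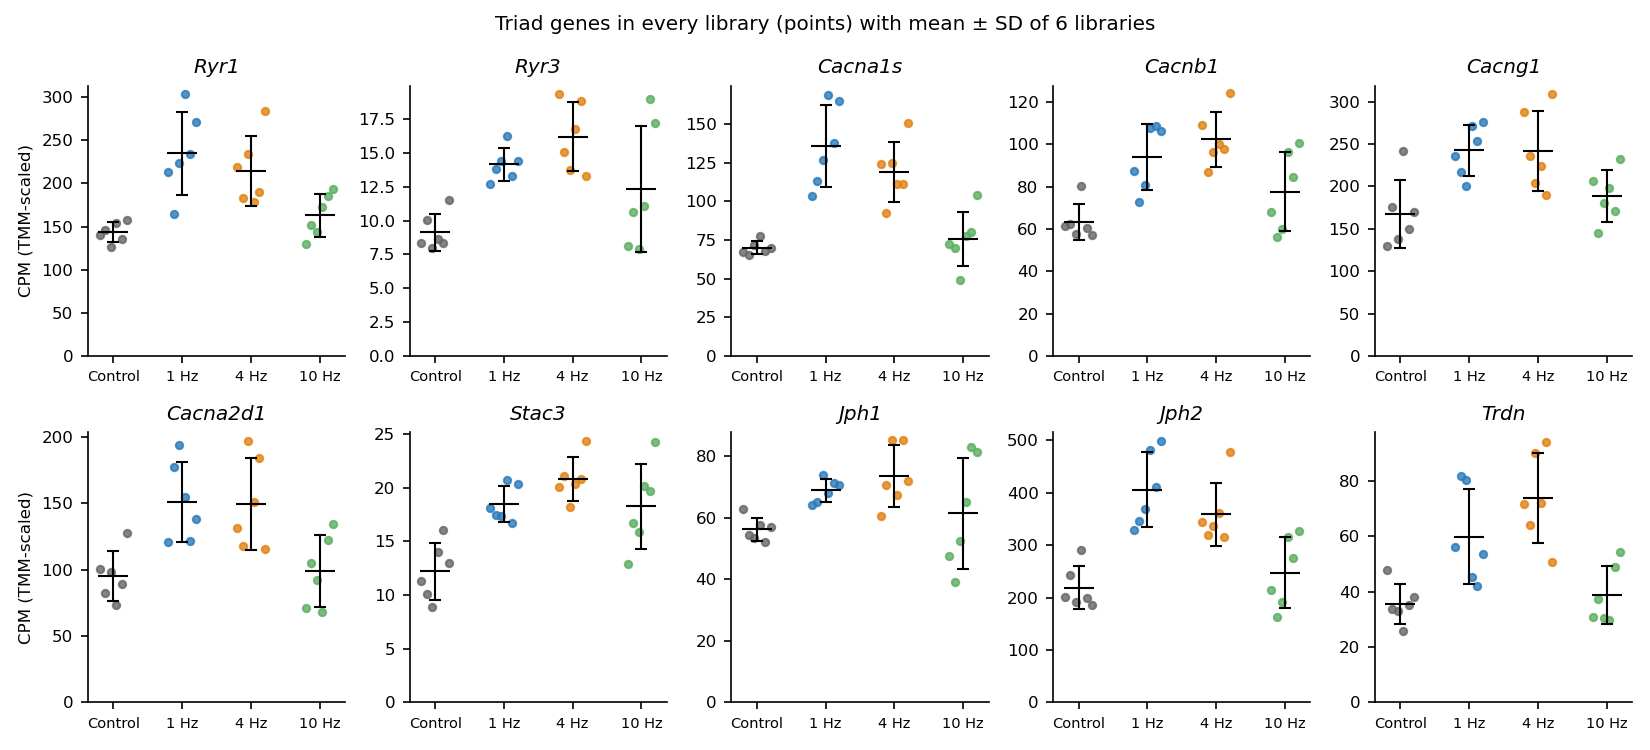
CPM of each triad gene (y axis from 0) in all 24 libraries by condition, with mean ± SD of 6 libraries. For Ryr1, Cacna1s and Jph2 every 1 and 4 Hz point lies above every control point, while the 10 Hz points lie within and above the control range and, for Cacna1s and Jph2, also below it.

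Counting groups without overlap in CPM gave the same order. At 1 Hz, 6 of 10 genes had all stimulated libraries above all controls, against 7.22% of all genes. At 4 Hz 7 of 10 did, against 8.68%, and at 10 Hz none did, against 1.28%. The share without overlap is not a test and sets no weight on distance.

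Pacing at 4 Hz and at 1 Hz could not be told apart in these genes. None of the 10 passed the adjusted p in edgeR or in DESeq2, and 0 had an unadjusted p below 0.05. Over all genes, 5.71% passed the adjusted p higher at 4 Hz and 6.56% lower, and 1.59% and 1.4% did so with the fold. The log2 differences, 4 Hz minus 1 Hz, ran from -0.19 for Cacna1s (95% interval -0.47 to 0.08) to 0.30 for Trdn (95% interval -0.07 to 0.67). The remaining 8 lay between those values, 5 of the 10 being positive.

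Against 1 Hz, the 10 Hz tissues were lower. By adjusted p and fold, 5 of 10 genes fell, where 8.49% of all genes did: Cacna1s, Jph2, Trdn, Cacna2d1 and Ryr1. Cacna1s fell by 0.85 ± 0.14 on the log2 scale (edgeR adjusted p = 4.06e-05) and Jph2 by 0.71 ± 0.15 (edgeR adjusted p = 0.000767). Jph2 was the only gene of the 10 whose 10 Hz libraries all lay below its 1 Hz libraries, against 7.49% of all genes. Trdn fell by 0.63 ± 0.18 (edgeR adjusted p = 0.0085), Cacna2d1 by 0.62 ± 0.17 (edgeR adjusted p = 0.00588) and Ryr1 by 0.53 ± 0.13 (edgeR adjusted p = 0.00182). Cacng1 passed the adjusted p with a smaller fold (-0.36 ± 0.14, edgeR adjusted p = 0.0424), which makes 6 of 10 against 18.5% of all genes.

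Against 4 Hz, 4 of 10 genes fell at 10 Hz by both criteria, where 5.64% of all genes did. Trdn fell by 0.94 ± 0.18 on the log2 scale (edgeR adjusted p = 0.000893), Cacna1s by 0.66 ± 0.14 (edgeR adjusted p = 0.00145), Cacna2d1 by 0.60 ± 0.17 (edgeR adjusted p = 0.0124) and Jph2 by 0.54 ± 0.15 (edgeR adjusted p = 0.0132). Ryr1 and Cacnb1, both at -0.40 ± 0.13, passed the adjusted p only. With the small RNA share as a covariate no triad gene passed in either comparison of 10 Hz with a lower frequency. The medians were -0.19 against 1 Hz and -0.10 against 4 Hz. Of the whole table, 247 genes were then counted against 1 Hz and 0 against 4 Hz.

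On the mean of the 10 genes (log2 CPM minus the mean of each gene over all libraries), the 10 Hz libraries spread most, from -0.46 to 0.25, against -0.52 to -0.29 in control, 0.12 to 0.41 at 1 Hz and 0.15 to 0.40 at 4 Hz. This did not hold gene by gene: relative to its mean, the SD was larger at 1 Hz than at 10 Hz for Ryr1 and Trdn and larger in control for Cacng1. Replicate 6 lay above the median over all 24 libraries in 10 of 10 triad genes and replicate 5 in 6, whereas replicates 1, 2, 3 and 4 did so in 1, 0, 0 and 2. Ryr3 ran from 7.93 CPM in replicate 3 to 19.0 in replicate 5, and Cacna1s from 49.4 in replicate 3 to 104 in replicate 6. The small RNA share was lower in the 10 Hz libraries with the higher triad means, at 38.4 CPM in replicate 6, 67.3 in replicate 5 and 81.1 in replicate 4. In replicates 1, 2 and 3 it was 178, 272 and 111. Among the same libraries the summed fiber genes ranged from 16160 TPM in replicate 3 to 25410 TPM in replicate 6. The part of either measure in the triad values at 10 Hz was not tested beyond the covariate fit.

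**Figure D4:**
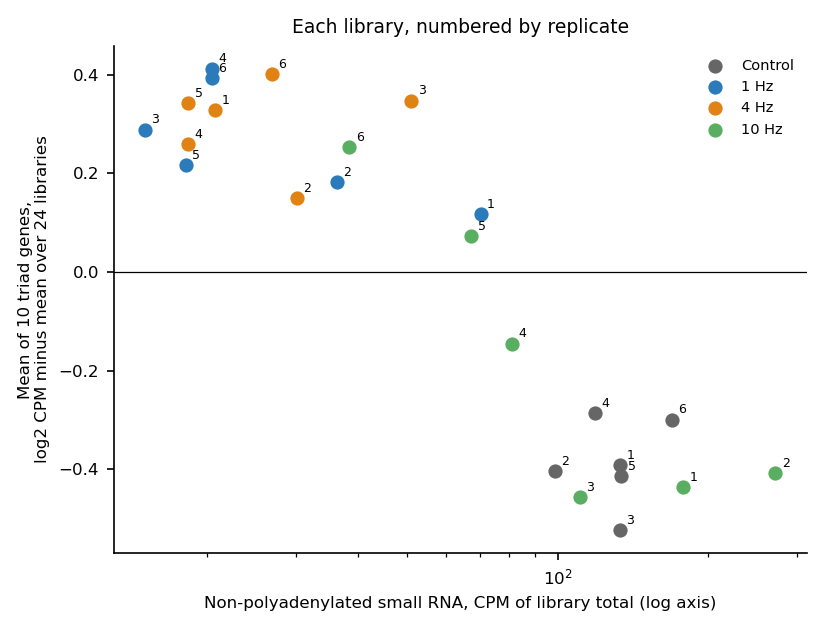
Each of the 24 libraries by its share of small RNA without a poly(A) tail (x axis, CPM, log axis) and the mean of the 10 triad genes (y axis, log2 CPM minus the mean of each gene over all libraries), numbered by replicate. Control libraries stand at 98.8 and above on the x axis and below 0 on the y axis, 1 and 4 Hz libraries above 0, and 10 Hz libraries on both sides of 0.

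Some pairs of triad genes were more alike over the libraries than others. Over the 24 libraries, the mean absolute difference of centred log2 CPM was smallest between Cacna1s and Jph2, at 0.15, and largest between Cacng1 and Trdn, at 0.43. Among 9285 other genes, the closest to Cacna1s was Atp2a1, the calcium pump of fast fibers, at 0.08, then Actn3 at 0.10 and Stim1 at 0.10, with 0.43 as the median over all candidates. Ryr1 was closest to Myom2 and Nrap (0.11 and 0.11), genes of the sarcomere and its anchorage, and Jph2 to Slc6a9, Actn3 and Fgfrl1 (0.10, 0.11 and 0.11). Trdn was closest to Smpx at 0.15 and to the muscle transcription factor Mef2c at 0.19. Cacng1 was closest to Tubb6 and Des, Cacnb1 to Cpne2 and Pacsin3, and Cacna2d1 to Ppp3ca, a catalytic subunit of calcineurin. Stac3 was closest to Fn3k, Jph1 to Zbtb18 and Ryr3 to Sntb1. The median over all candidates ran from 0.28 for Jph1 to 0.49 for Trdn. The closest of 9285 genes is bound to look closer than the few other triad genes. These are descriptions over libraries that differed in depth and may have differed in preparation.

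Other parts of the release machinery were read from fixed lists. Of 15 genes for partners of the release channel, 14 passed the filter, and 5 rose at 1 Hz, 8 at 4 Hz and 1 at 10 Hz by adjusted p and fold. The shares of all genes tested were 9.34%, 10.5% and 1.24%. The median log2 fold changes of the partners were 0.40, 0.55 and 0.20. The largest log2 fold change at 4 Hz was that of Sypl2 (mitsugumin 29), 1.20 ± 0.40 (edgeR adjusted p = 0.0184), a gene named after its value was seen and measured at only 0.61 ± 0.33 CPM in control; it was 0.83 ± 0.41 at 1 Hz (edgeR adjusted p = 0.123) and 1.17 ± 0.40 at 10 Hz (edgeR adjusted p = 0.0862). Of the calsequestrins, Casq1, the form of fast fibers, rose from 84.7 ± 8.69 CPM in control to 159 ± 28.8 at 1 Hz and 188 ± 46.1 at 4 Hz (log2 fold changes 0.91 and 1.15), and Casq2, the form of heart and slow or immature muscle, from 571 ± 47.1 to 1041 ± 93.9 and 1233 ± 95.4 (0.87 and 1.11). Casq2 was also the partner that rose at 10 Hz, to 828 ± 162 CPM (0.54 ± 0.10, edgeR adjusted p = 0.0018), with all 6 libraries above control. Casq2 made up 84.9 ± 1.29% of the summed calsequestrin TPM in control, 86.0 ± 1.54% at 1 Hz, 86.6 ± 1.60% at 4 Hz and 88.7 ± 1.45% at 10 Hz. By CPM the shares were 87.1, 86.8, 86.9 and 89.0%, and the ranges of control and 10 Hz overlapped (85.9 to 88.2% and 86.7 to 90.9%).

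The other partners named by the rule moved unevenly. Srl (sarcalumenin, a calcium binding protein of the store) rose by 0.72 ± 0.10 at 1 Hz and 0.61 ± 0.10 at 4 Hz, Hrc (histidine-rich calcium binding protein) by 0.77 ± 0.12 and 0.69 ± 0.12, and Tmem38a (a potassium channel of the store) by 0.56 ± 0.09 and 0.72 ± 0.09. Asph, whose locus also encodes junctin, passed the adjusted p at 1 and 4 Hz with smaller folds (0.37 and 0.34). Jsrp1 rose by 0.59 ± 0.15 at 4 Hz (edgeR adjusted p = 0.00305) and stood at 0.44 ± 0.15 at 1 Hz (edgeR adjusted p = 0.0242). Fkbp1a, which encodes the FKBP12 subunit bound to the release channel, was -0.12 ± 0.06 at 1 Hz (edgeR adjusted p = 0.117) and fell by 0.17 ± 0.06 at 4 Hz (edgeR adjusted p = 0.0219).

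Of 7 genes that build the T-tubule, 2 rose at 1 Hz, 3 at 4 Hz and 1 at 10 Hz. The shares of all genes tested were 9.34%, 10.5% and 1.24%. Cav3, the caveolin of muscle, rose by 0.98 ± 0.17, 1.29 ± 0.17 and 0.69 ± 0.17 in that order, and Tcap, a Z-disc cap of titin, by 0.87 ± 0.24 at 1 Hz and 1.35 ± 0.24 at 4 Hz. The third at 4 Hz was the phosphoinositide phosphatase Mtm1 at 0.51 ± 0.17 (edgeR adjusted p = 0.0214), named after its value was seen. Bin1, which bends the tubule membrane, passed the adjusted p with smaller folds of 0.35 ± 0.09 at 1 Hz and 0.24 ± 0.09 at 4 Hz. The fiber genes moved in the same comparisons: 16 of 21 rose at 1 Hz and 16 at 4 Hz, with medians of 0.75 and 0.84, and 2 did at 10 Hz, with a median of 0.23. Among them Atp2a1 rose by 0.92 ± 0.14 and 0.84 ± 0.14 and Myh1 by 1.21 ± 0.22 and 1.09 ± 0.22 at 1 and 4 Hz, while creatine kinase Ckm was at 0.25 ± 0.15 and 0.28 ± 0.15 without passing. Of the 3 tested cardiac genes, Myl4 and Myh6 rose at 1 Hz (0.60 ± 0.12 and 1.01 ± 0.20) and at 4 Hz (0.73 ± 0.12 and 0.85 ± 0.20), and Nppb fell at 1 Hz by 1.25 ± 0.40, all named after their values were seen. Of the other cell lists, 2 of 7 tested myoblast genes rose at 1 Hz and 4 at 4 Hz (1 fell there), and 1 of 5 tested fibroblast genes rose at 1 Hz while 1 fell at 4 Hz. Of all 13318 genes tested, 1197 fell at 1 Hz and 1280 at 4 Hz by the same rule. In lists this short, 1 gene says little about the list. The summed fibroblast genes were 124 to 354 TPM in control, 221 to 320 at 1 Hz, 170 to 243 at 4 Hz and 145 to 198 at 10 Hz, all overlapping with control. The part of overall fiber RNA, or of other cells, in the triad values was not tested.

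**Figure D5:**
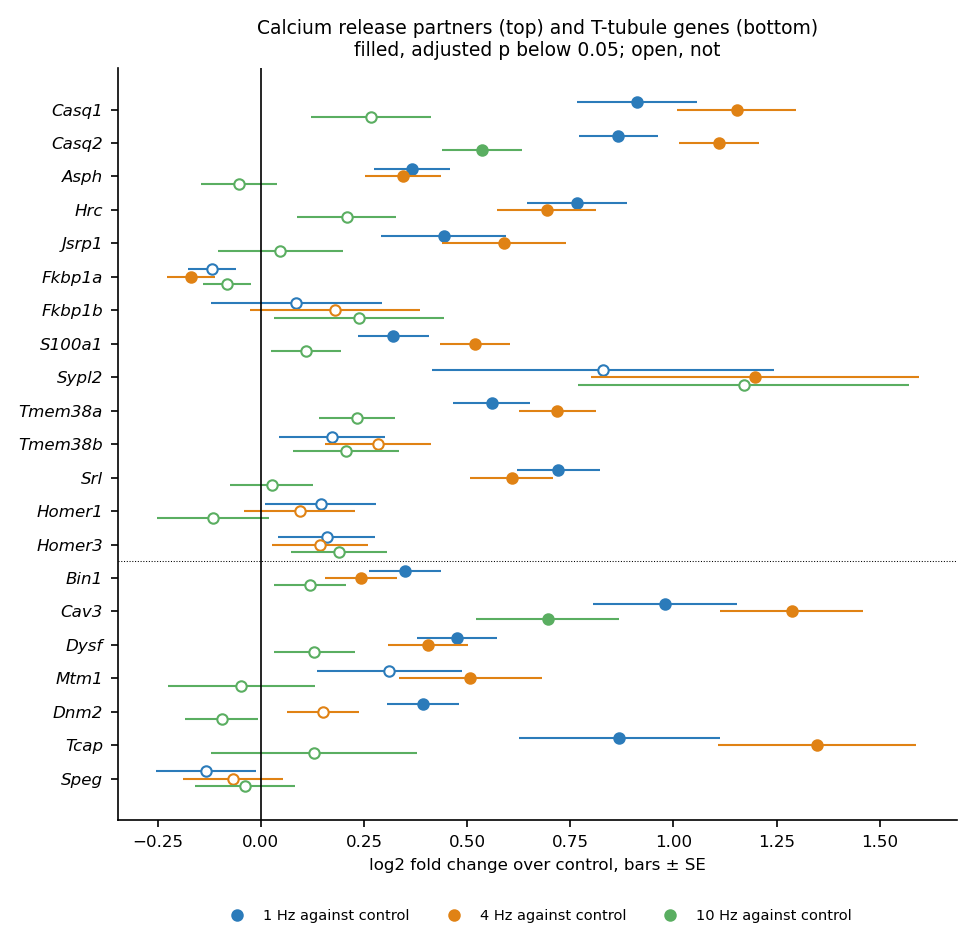
Log2 fold change against control (x axis, bars ± SE) at 1, 4 and 10 Hz for the 14 release partners and 7 T-tubule genes that were tested; filled points passed an adjusted p of 0.05. Tcap, Cav3, Sypl2, Casq1 and Casq2 lie farthest to the right at 4 Hz. Fkbp1a and Speg, the latter named after its values were seen, lie left of 0 at 1, 4 and 10 Hz.

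Of 27 listed paralogs of the triad genes, 5 passed the filter, where 13318 of all 56941 listed genes did. At 1 Hz and at 4 Hz 2 of the 5 rose, against 9.34% and 10.5% of all genes tested. Cacng6, a second gamma subunit of skeletal muscle, rose from 4.22 ± 1.53 CPM to 7.35 ± 0.58 at 1 Hz and 8.19 ± 1.11 at 4 Hz (log2 fold changes 0.76 and 0.92), and Stac, named after its values were seen, rose from 0.79 ± 0.75 CPM by 1.42 ± 0.49 and 1.76 ± 0.47. Cacnb3, a second beta subunit, stood at 65.8 ± 10.8 CPM in control with log2 fold changes of 0.11 and 0.01. Per length it had 40.8 ± 7.87 TPM in control, beside 42.7 ± 5.35 TPM for Cacnb1. Cacna1c, the cardiac voltage sensor, had 1 count in all libraries. Cacna1a, at a mean of 1.04 TPM, did not pass the filter.

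In the adaptor family a paralog outweighed the triad gene. Stac2 held 134 ± 9.54 CPM in control and did not pass at any frequency (log2 fold changes 0.21, 0.00 and -0.11 at 1, 4 and 10 Hz). As a share of the summed TPM of Stac2 and Stac3, Stac2 made up 75.4 to 82.6% in control (mean 79.3%), 70.2 to 73.1% (mean 71.9%) at 1 Hz, 64.7 to 71.8% (mean 67.7%) at 4 Hz and 63.0 to 80.1% (mean 71.4%) at 10 Hz. Neither 1 nor 4 Hz overlapped with control in this share, and 10 Hz did. By CPM the means were 91.7, 89.3, 86.4 and 87.2%, and 1 Hz overlapped with control (88.6 to 90.2% and 89.7 to 93.3%), while 4 Hz did not (84.0 to 88.5%). No test is given for a share built from a triad gene.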

How the data were processed

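RNA was measured by 50-base paired-end sequencing on a Singular G4 from directional libraries. The authors ran nf-core/rnaseq (STAR and Salmon on GRCm39, per the labels; the Ensembl release and the use of strand in counting are not given in the sources used here) and deposited estimated counts and TPM per gene. In each library, 6.62 to 10.6% of the values of all 56941 genes, zeros included, were not whole, and all were rounded here. Genes were filtered with filterByExpr (13318 of 56941 kept, with 99.8% of counts) and tested with edgeR 4.0.16 (R 4.3.3) by the quasi-likelihood test with TMM scaling on all 24 libraries, condition as the only factor and Benjamini-Hochberg adjustment over all genes tested. SEs are those implied by the F statistic, and the common dispersion was 0.0233. Counted were genes that passed an adjusted p of 0.05 with a log2 fold change beyond 0.5 in either direction. Values for single libraries are TMM-scaled CPM.

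DESeq2 1.42.0 and limma 3.58.1 on the deposited TPM (log2 after adding 1 or 0.1) were alternatives, with other scalings and filters, a replicate block, the small RNA share as covariate and each library left out. The procedure was tested on simulated counts. The triad genes and all lists were chosen with earlier results of these data known. Named were all 10 triad genes, partner and T-tubule genes counted in at least 2 comparisons with control or fixed by name, paralogs with a mean of at least 1 TPM plus Ryr2 and Cacna1c, 5 fiber genes, and the 3 genes closest to each triad gene among those with a mean of at least 10 CPM, of which the text gives 1 to 3. Gene positions are from GENCODE M39 on GRCm39. Of the 10 genes, 8 overlap another annotated gene, mostly on the opposite strand, and Cacng1 and Stac3 overlap none. Promoters are from RefSeq on GRCm38.p6. No 2 libraries of a condition agreed within sampling noise.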

Additional observations from a re-analysis of the deposited data

Results flagged for a closer look

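Values of single libraries were compared within each of the 40 combinations of a triad gene and a condition, and 2 held a library far from the other 5 by Dixon's criterion, where chance gives about 1 in 20 groups. Cacnb1 was 80.06 CPM in control replicate 4, and the next library stood at 62.4 CPM, a gap of 0.778 of the whole range. Jph2 was 477.5 CPM in 4 Hz replicate 6, with the next at 361 CPM and a gap of 0.721 of the range.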

How the results depend on the processing

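With each library left out in turn, the number of triad genes counted was 8 to 9 at 1 Hz, 7 to 9 at 4 Hz and 0 to 1 at 10 Hz against control, 0 to 0 for 4 Hz against 1 Hz, 4 to 5 for 10 Hz against 1 Hz and 3 to 5 for 10 Hz against 4 Hz. The 0 at 10 Hz came without 10 Hz replicate 6. The counts were 9, 9, 1, 0, 5 and 4 in the same order with the replicate number as a block. Of 36 same-numbered pairs, 10 correlated above 0.1 (range -0.18 to 0.36), and 10 of 24 libraries were closest to their own number. Whether libraries of the same number belong together was not tested. Of 1380 alternative values for single genes, 1220 kept direction and side of the threshold, 87 lost and 17 gained the call and 56 changed sign. The covariate fit with the small RNA share left 0 genes at 1 Hz, 0 at 4 Hz, 0 for 10 Hz against 1 Hz and 0 for 10 Hz against 4 Hz. limma on log2(TPM + 1) gave 6 genes at 1 Hz (6 with 0.1 added, 6 with no filter) and 5 at 4 Hz (5 and 4). It gave 0 at 10 Hz (0 and 0) and 1 for 10 Hz against 4 Hz (1 and 1), and it moved the median of all genes to -0.16 at 4 Hz. Total count scaling left 7 genes at 1 Hz. With only the 12 libraries compared, 0 were counted at 10 Hz. The Ryr3 share by CPM was 5.99% in control, 5.81% at 1 Hz, 7.23% at 4 Hz and 6.85% at 10 Hz, and the Jph2 share at 10 Hz was 80.1%.

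All the sign changes were in values that had not passed, or that did not pass under the alternative. For 4 Hz against 1 Hz, Cacng1 was 0.000652 with DESeq2, 0.000698 with its size factors, 0.00102 with no filter, 0.0186 at a mean of at least 5 CPM and 0.00451 with only the 12 libraries, and Cacna2d1 was 0.00665 at 5 CPM. For 10 Hz against 1 Hz, Stac3 was 0.0213 with total count scaling and 0.0117 at 5 CPM. On log2(TPM + 1), with or without a filter, Cacna1s was -0.19, Cacna2d1 -0.10, Jph1 -0.0185 and Trdn -0.0315 at 10 Hz against control, and Stac3 -0.054 and Jph1 -0.0382 for 4 Hz against 1 Hz; with 0.1 added they were -0.19, -0.11, -0.0223, -0.0328, -0.0558 and -0.0404. With the covariate, Jph1 was -0.17 at 1 Hz and -0.0646 at 4 Hz against control; Ryr3, Cacnb1, Stac3 and Jph1 were 0.27, 0.11, 0.25 and 0.19 for 10 Hz against 1 Hz; and Ryr3, Stac3 and Jph1 were 0.0748, 0.0667 and 0.0888 for 10 Hz against 4 Hz. With libraries left out, the range at 10 Hz against control was -0.00234 to 0.21 for Cacna1s, -0.0549 to 0.16 for Cacna2d1 and -0.00806 to 0.23 for Trdn; for 4 Hz against 1 Hz it was -0.0815 to 0.0558 for Cacng1 and -0.11 to 0.0692 for Cacna2d1, and for 10 Hz against 1 Hz -0.13 to 0.0625 for Stac3. The cause was not tested. Counting depth limits Ryr3 and Stac3 most, with as few as 36 and 60 counts in a library.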
